A study of Homo sapiens with 21 samples.

Results

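The MAPK phosphatases are the dual-specificity phosphatases that switch off ERK, JNK and p38, and their transcripts were followed here in stressed pancreatic cells. The members were chosen by symbol as DUSP1, DUSP2, DUSP4, DUSP5, DUSP6, DUSP7, DUSP8, DUSP9, DUSP10 and DUSP16, and all 10 were found among the 23368 genes listed and among the 19694 genes with a value in at least 1 library. RNA was sequenced from hTERT-HPNE, a telomerase-immortalized, nontransformed human pancreatic cell line grown in medium with EGF and puromycin. The 7 groups of 3 biological replicates, 21 libraries in all, were untreated cells at 0 h and cells harvested 4, 8 or 24 h after 300 µM H2O2, an oxidant, or 400 ng/ml neocarzinostatin (NCS), a radiomimetic that breaks both DNA strands. The medium was replaced when the agents were added. There was no untreated group at 4, 8 or 24 h, so treatment and time in fresh medium cannot be told apart in comparisons with untreated cells, and the 6 such comparisons share the same 3 control libraries.

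MAPK phosphatases remove the phosphates from both the threonine and the tyrosine of the activation loop of a MAPK. Most of their genes are themselves switched on by MAPK signaling, so the transcripts act as negative feedback and are often read as a record of recent kinase activity. The nuclear, inducible enzymes (DUSP1, DUSP2, DUSP4 and DUSP5) are products of early response genes, the cytoplasmic enzymes (DUSP6, DUSP7 and DUSP9) prefer ERK, and the last group (DUSP8, DUSP10 and DUSP16) prefers JNK and p38. Loss of these enzymes prolongs kinase activity, and in the case of JNK prolonged activity is known to favor cell death.

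The values are rLog values, which are log2 counts scaled for library size and shrunk toward the mean of a gene, most strongly where reads are few. Differences of low transcripts such as DUSP2 and DUSP8 are therefore understated, levels are not per length and were not compared between genes, and the depth of the libraries is unknown. The 3 libraries of H2O2 at 8 h were farther from each other (mean Euclidean distance of a library to its group mates 13.1 to 14.9 over all genes tested) than those of the other groups (9.28 to 11). Replicate 2 of that group lay farthest out and was also the most distant of the 3 for 9 of the 10 members. The share of all genes for which this holds was not counted. The results at that time that turn on replicate 2 are therefore given with and without it. Of the defining markers, the mesenchymal and progenitor genes were high in every library (VIM 16.79 to 17.25, NES 11.78 to 12.28). The ductal keratin KRT18 was high (11.38 to 11.85) and KRT7 intermediate (6.61 to 7.17), whereas the ductal markers KRT19 (0.58 to 0.73), EPCAM (-1.77 to -1.74) and CFTR (-1.34 to -1.30) were low. The ductal markers KRT8 (7.73 to 8.28), SOX9 (5.78 to 6.48) and CDH1 (3.70 to 3.88) lay between. The acinar genes PRSS1, CELA3A and PTF1A and the endocrine genes INS and PDX1 were at 0 in all libraries. This 0 marks genes without a value in any library and cannot be ranked against the other values. The other acinar and endocrine genes listed were at most 0.68 (CTRB1). Of the immune markers, CD68 was high (9.93 to 10.57), whereas PTPRC, CD14 and MS4A1 were at most 2.68 and CD3E was at 0.

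The regulatory sequence of 2 members is shown because DUSP8 and DUSP1 are inducible genes whose windows hold the cAMP response element (CRE, TGACGTCA), the palindrome bound by the CREB and ATF factors. The sequences are the 250 bases before the transcript start from RefSeq (GRCh38.p14), read 5′ to 3′ on the gene's strand, with the CRE in capitals.

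DUSP1 (chr5:172771196-172771445, minus strand): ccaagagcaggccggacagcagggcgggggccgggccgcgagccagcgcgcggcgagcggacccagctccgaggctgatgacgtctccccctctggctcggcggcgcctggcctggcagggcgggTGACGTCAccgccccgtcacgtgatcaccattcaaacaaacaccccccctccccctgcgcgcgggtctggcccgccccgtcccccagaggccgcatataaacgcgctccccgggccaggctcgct

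DUSP8 (chr11:1572272-1572521, minus strand): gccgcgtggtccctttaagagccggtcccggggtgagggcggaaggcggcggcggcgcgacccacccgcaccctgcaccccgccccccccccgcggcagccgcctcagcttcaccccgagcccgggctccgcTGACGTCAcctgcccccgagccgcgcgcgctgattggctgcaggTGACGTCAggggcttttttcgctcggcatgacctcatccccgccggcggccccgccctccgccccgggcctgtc

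DUSP8 held the CRE at 2 places, from -118 to -111 and from -74 to -67 counted from the start, and DUSP1 held it once, from -125 to -118. Over all 34943 distinct promoter windows of the same length, 1.63% held the CRE and 0.0544% held it at 2 or more places. Windows were found for 8 members, with 2 alternative starts each for DUSP9 and DUSP10, and DUSP4 and DUSP5 had no entry. Both strands were also searched for the AP-1 site TGACTCA, the E-box CACGTG, the GC box GGGCGG, the CArG box and the p53 half-site. The E-box was present in DUSP1 and DUSP2 (6.32% of all windows), a p53 half-site in DUSP7 (5.58%), and the GC box in every member window except that of DUSP6 (42.5%). The AP-1 site (4.22% of all windows) and the CArG box (1.16%) were in none of the member windows. In DUSP1 the CRE did not overlap the GC boxes that flank it at -132 to -127 and -117 to -112. DUSP6 held none of the 6 motifs. A match describes these letters in this window and not binding, and whether any motif bears on the expression values was not tested.

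**Figure D1:**
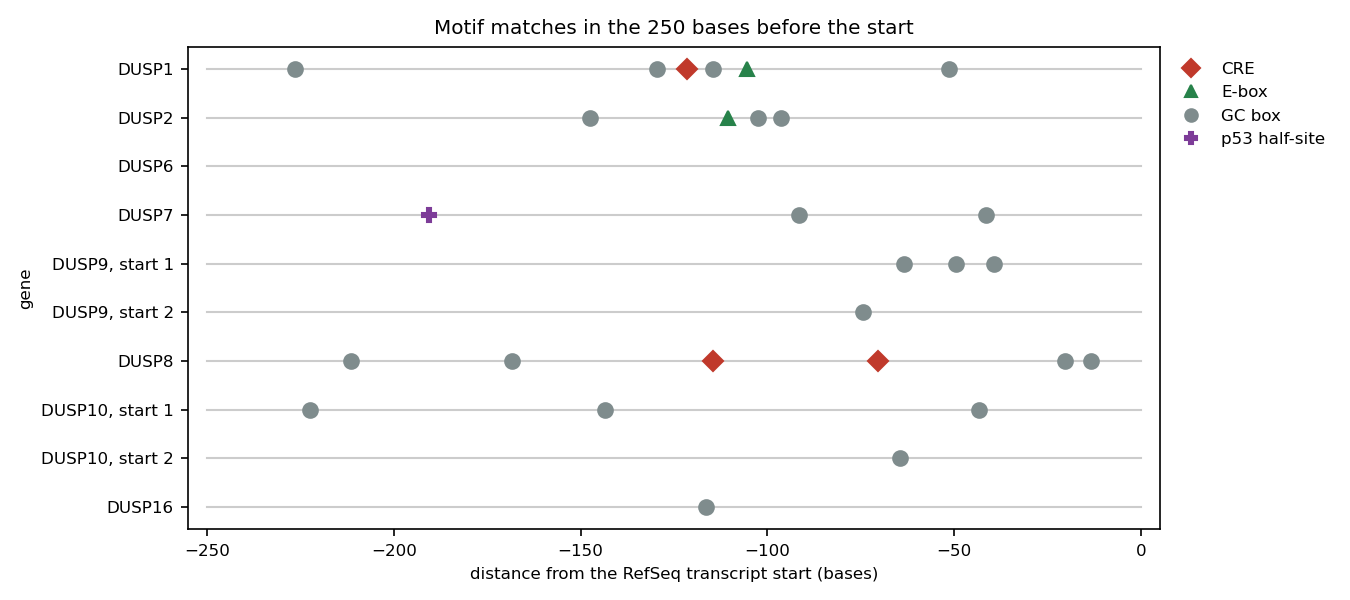
Motif matches in the 250 bases before the RefSeq transcript start of 8 MAPK phosphatase genes (x axis, distance from the start in bases; 1 row per start; symbols, motif types). The CRE appears in the rows of DUSP1 and DUSP8 only, and the row of DUSP6 is empty.

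In response to H2O2, most MAPK phosphatase transcripts were higher at 4 h. Of the 10 members, 8 were higher than in untreated cells, DUSP6 was lower, and DUSP9 did not pass the test (limma, adjusted p under 0.05). Over all 19694 genes, 45.9% passed in this comparison, 26.2% as higher and 19.7% as lower. The median difference of the members was 0.43 on the log2 scale, against 0.0038 over all genes. At 8 h, 6 members were higher and none was lower (18.8% and 18.6% of all genes), and at 24 h, 3 were higher and 1 was lower (20.2% and 19.9%). The count at 8 h was 7 without replicate 2, with DUSP9 added at a difference of 0.05 (adjusted p = 0.00936).

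NCS was followed by differences of at most 0.87, that of DUSP4 at 24 h. At 4 h, 5 members were higher and DUSP6 was lower (7.47% and 9.72% of all genes). At 8 h, 6 were higher and DUSP6 was lower (10.5% and 13.3%), and at 24 h, DUSP4, DUSP8 and DUSP16 were higher and DUSP7 was lower (19.6% and 18.4%). These shares over all genes include many transcripts near 0. Among the 11681 genes with a mean rLog value of at least 5, which include 8 members, 54.9% passed in H2O2 at 4 h beside 8 of the 8 members. In H2O2 the shares were 55.9% at 8 h beside 5 members and 62.1% at 24 h beside 4. In NCS they were 27.9% at 4 h beside 6, 38.5% at 8 h beside 7 and 60% at 24 h beside 4. Between the treatments they were 52.4%, 51.2% and 34.5% at 4, 8 and 24 h, beside 7, 7 and 5 members. Only DUSP8 in H2O2 at 4 h and DUSP4 in H2O2 at 24 h had an absolute log2 difference from untreated cells over 1, as did 0.696% and 1.61% of all genes.

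**Figure D2:**
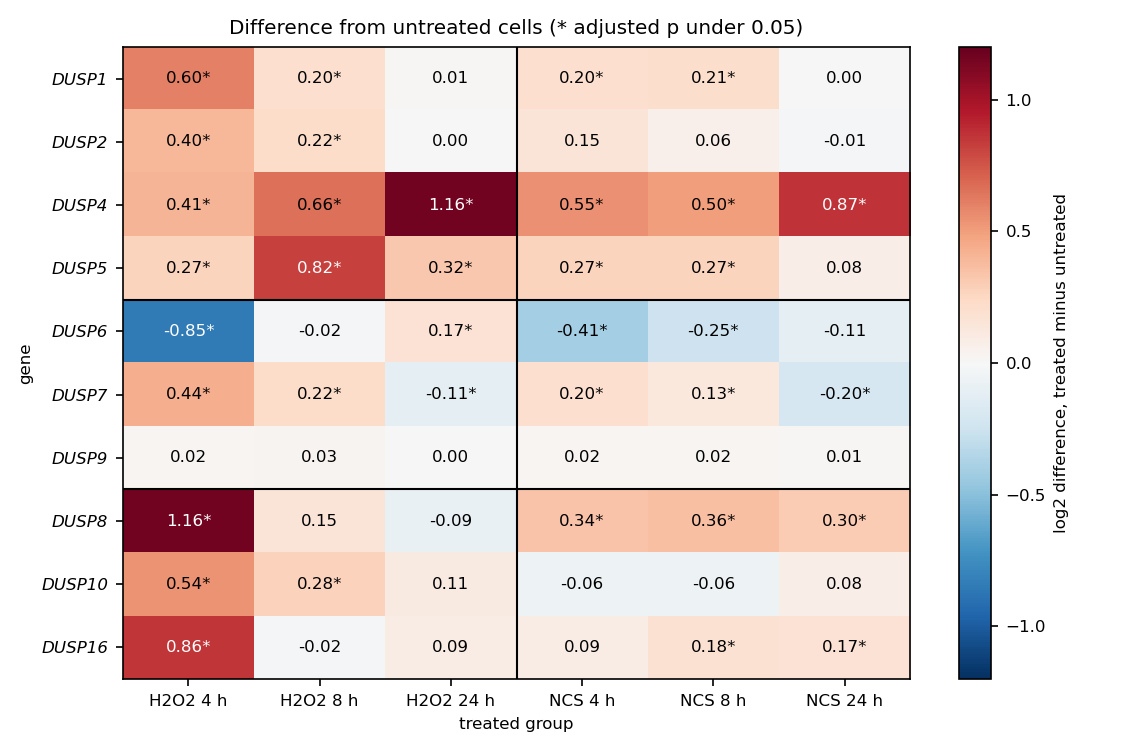
Difference of each MAPK phosphatase from untreated cells (rows, genes by class; columns, treated groups; color and number, log2 difference of rLog means of 3 libraries per group; asterisk, adjusted p under 0.05). The first column, H2O2 at 4 h, holds 8 higher transcripts and DUSP6 at -0.85, and the DUSP4 row is higher in all 6 columns.

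Among the nuclear enzymes, DUSP1, the classic immediate early MAPK phosphatase that acts mainly on p38 and JNK, peaked early in response to H2O2. Its rLog values were 12.95, 13.03 and 12.97 in untreated cells and 13.59, 13.56 and 13.59 after H2O2 for 4 h. The libraries of H2O2 had 13.23, 13.05 and 13.26 at 8 h and 13.01, 13.00 and 12.98 at 24 h. All 3 libraries of H2O2 at 4 h were above the other 18, and those at 24 h overlapped the untreated ones. The difference from untreated cells was 0.60 ± 0.04 (SE, n = 3 per group, as for all errors below) after 4 h (adjusted p = 3.98e-10) and 0.20 ± 0.04 after 8 h (adjusted p = 0.000298), and after 24 h it was 0.01 ± 0.04 (adjusted p = 0.877). The SE comes from the fit of all 7 groups and is the same for any pair of groups of a gene. It does not reflect the wider spread of some genes in H2O2 at 8 h (SD of DUSP1 0.11, against 0.04 in untreated cells). Without replicate 2 the difference at 8 h was 0.26, and in a fit of only the untreated and 8 h libraries it did not pass (0.20, adjusted p = 0.0545). In response to NCS, DUSP1 had 13.20, 13.21 and 13.15 after 4 h, 13.18, 13.21 and 13.19 after 8 h, and 12.98, 12.98 and 12.99 after 24 h. Both earlier times were higher than untreated cells, by 0.20 ± 0.04 (adjusted p = 0.000677) and 0.21 ± 0.04 (adjusted p = 0.000274), and the values at 24 h were inside the untreated range. DUSP2, a nuclear phosphatase best known from immune cells, was expressed at low values from 3.77 to 4.29. It was highest in H2O2 at 4 h (4.23, 4.27 and 4.29), where it differed from the untreated values of 3.89, 3.83 and 3.87 by 0.40 ± 0.05 (adjusted p = 3.36e-06; 0.21, adjusted p = 0.00263, after quantile normalization). The difference at 8 h was 0.22 ± 0.05 (adjusted p = 0.00157; 0.19 without replicate 2). In NCS at 4 h the difference of 0.15 ± 0.05 narrowly missed the threshold (adjusted p = 0.0532) and passed it without NCS replicate 3 (0.18, adjusted p = 0.0393) or without the mean-variance trend of the fit (adjusted p = 0.034).

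DUSP4, a nuclear phosphatase of ERK and JNK, had the opposite time course and was highest at the last time in both treatments. Untreated cells had values of 7.57, 7.60 and 7.58. After H2O2 the values were 7.97, 8.03 and 7.99 after 4 h, 8.27, 8.18 and 8.26 after 8 h, and 8.77, 8.74 and 8.71 after 24 h. After NCS they were 8.11, 8.11 and 8.19 after 4 h, 8.15, 8.02 and 8.06 after 8 h, and 8.45, 8.51 and 8.40 after 24 h. Every treated library was above every untreated one. In response to H2O2 the difference from untreated cells was 0.41 ± 0.04 after 4 h, 0.66 ± 0.04 after 8 h and 1.16 ± 0.04 after 24 h (adjusted p = 1e-07, 6.09e-10 and 4e-14). Each step was a rise, by 0.24 ± 0.04 from 4 to 8 h (adjusted p = 5.31e-05; 0.27 without replicate 2 at 8 h) and by 0.50 ± 0.04 from 8 to 24 h (adjusted p = 8.03e-09; 0.47 without it). In response to NCS the difference was 0.55 ± 0.04 after 4 h, 0.50 ± 0.04 after 8 h and 0.87 ± 0.04 after 24 h (adjusted p = 1.07e-08, 2.28e-08 and 1.84e-12). The step from 4 to 8 h did not pass the test (-0.06 ± 0.04, adjusted p = 0.43), and that from 8 to 24 h was a rise of 0.37 ± 0.04 (adjusted p = 5.72e-07).

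DUSP5, a nuclear phosphatase that binds ERK selectively, was the member that peaked at 8 h. Untreated cells had 12.01, 12.02 and 12.05, and the libraries of H2O2 had 12.29, 12.27 and 12.34 after 4 h, 12.92, 12.67 and 12.95 after 8 h, and 12.30, 12.36 and 12.39 after 24 h. The 3 libraries at 8 h were above all others, with replicate 2 the lowest of them. The difference from untreated cells rose from 0.27 ± 0.05 at 4 h (adjusted p = 0.00012) to 0.82 ± 0.05 at 8 h (adjusted p = 4.65e-10), and the step between these times was 0.55 ± 0.05 (adjusted p = 4.04e-08). Without replicate 2 the difference from untreated cells at 8 h was 0.91 and the step 0.64. By 24 h it had dropped back to 0.32 ± 0.05 (adjusted p = 1.82e-05). In response to NCS, DUSP5 had 12.32, 12.29 and 12.27 after 4 h, 12.27, 12.30 and 12.31 after 8 h, and 12.10, 12.12 and 12.12 after 24 h. It exceeded untreated cells by 0.27 ± 0.05 after 4 h and again after 8 h (adjusted p = 0.000501 and 0.000307), whereas 0.08 ± 0.05 after 24 h did not pass (adjusted p = 0.194), except in a fit of only the untreated and 24 h libraries (adjusted p = 0.0101). Processed pseudogenes of DUSP5 exist, and the one listed, DUSP5P, had values of 1.6 to 1.74.

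**Figure D3:**
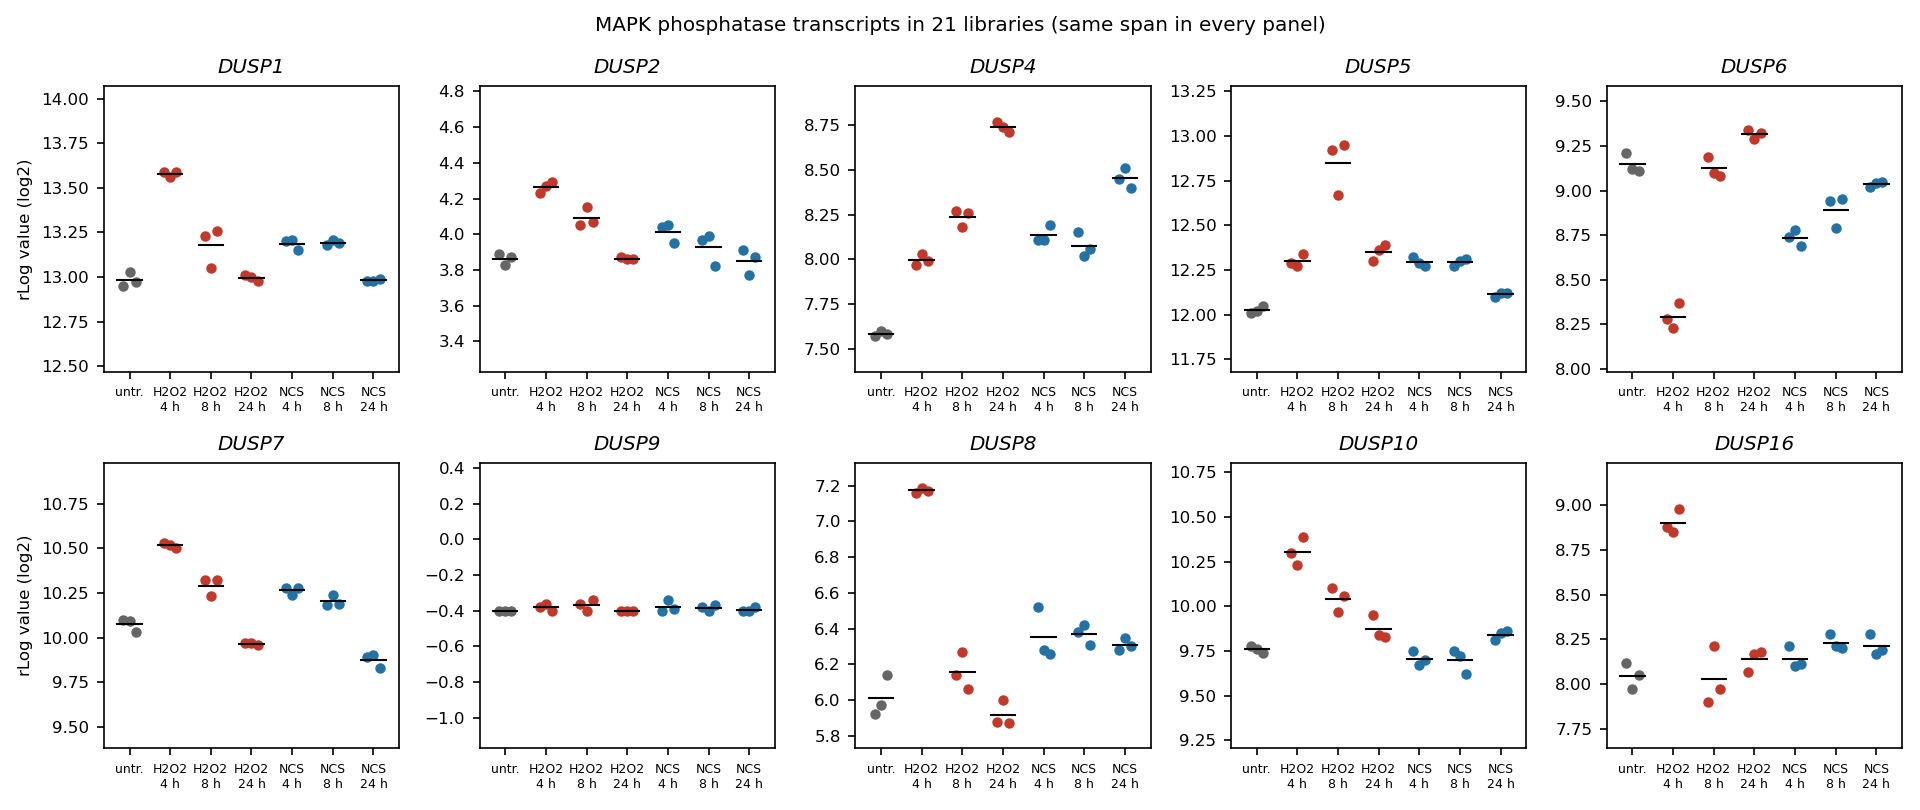
Values of the 10 MAPK phosphatases in every library (y axis, rLog value on the log2 scale, each panel with its own center and the same span; x axis, the 7 groups; points, replicates 1 to 3 from left to right; lines, group means). DUSP1, DUSP2, DUSP7, DUSP8, DUSP10 and DUSP16 are highest in H2O2 at 4 h, DUSP5 in H2O2 at 8 h and DUSP4 in H2O2 at 24 h, whereas DUSP6 is lowest in H2O2 at 4 h.

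Among the cytoplasmic enzymes, DUSP6, which binds and inactivates ERK and whose transcript is a widely used readout of ERK activity, moved against the others. Untreated cells had 9.21, 9.12 and 9.11, and the libraries of H2O2 had 8.28, 8.23 and 8.37 after 4 h, 9.19, 9.10 and 9.08 after 8 h, and 9.34, 9.29 and 9.32 after 24 h. The libraries at 4 h were below all others, those at 8 h overlapped the untreated ones, and those at 24 h were above all others. The difference from untreated cells was -0.85 ± 0.04 after 4 h (adjusted p = 4.14e-11), -0.02 ± 0.04 after 8 h (adjusted p = 0.825; -0.01 without replicate 2) and 0.17 ± 0.04 after 24 h (adjusted p = 0.00376). The step from 4 to 8 h was a rise of 0.83 ± 0.04 (adjusted p = 1.18e-10). In response to NCS the values were 8.74, 8.78 and 8.69 after 4 h, 8.94, 8.79 and 8.95 after 8 h, and 9.02, 9.04 and 9.05 after 24 h. None of these libraries reached the untreated range. The difference was -0.41 ± 0.04 after 4 h (adjusted p = 2.56e-06) and -0.25 ± 0.04 after 8 h (adjusted p = 0.00033), and after 24 h -0.11 ± 0.04 did not pass (adjusted p = 0.0724). The steps between times in NCS, 0.16 ± 0.04 from 4 to 8 h (adjusted p = 0.0241) and 0.14 ± 0.04 from 8 to 24 h (adjusted p = 0.0203), rested on few libraries. The first lost its call without replicate 1 or 3 at 4 h or replicate 1 or 3 at 8 h (differences of 0.13 to 0.16, adjusted p from 0.0628 to 0.118). The second lost it without replicate 2 at 8 h or replicate 2 or 3 at 24 h (0.09 to 0.14, adjusted p from 0.0505 to 0.143). Neither passed in a fit of only the groups compared (adjusted p = 0.101 and 0.0668).

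DUSP7, the close relative of DUSP6 in the same class, did not share its fall. Untreated cells had 10.10, 10.09 and 10.03, and in H2O2 at 4 h the libraries had 10.53, 10.52 and 10.50, above all others. The difference was 0.44 ± 0.03 after 4 h (adjusted p = 7.31e-10) and 0.22 ± 0.03 after 8 h (adjusted p = 7.39e-06; 0.25 without replicate 2). At 24 h the libraries had 9.97, 9.97 and 9.96, below the untreated range, and the difference was -0.11 ± 0.03 (adjusted p = 0.00649), which did not pass after quantile normalization (-0.07, adjusted p = 0.0702). The same order held in NCS, with 0.20 ± 0.03 after 4 h (adjusted p = 7.11e-05), 0.13 ± 0.03 after 8 h (adjusted p = 0.00224) and -0.20 ± 0.03 after 24 h (adjusted p = 1.7e-05), where the values were 9.89, 9.90 and 9.83. DUSP9, an ERK phosphatase known from placenta and kidney, was low in all 21 libraries (-0.40 to -0.34). It passed no comparison (in the 6 against untreated cells the differences were at most 0.03 ± 0.01). Under other settings, differences of at most 0.05 in size passed. These were H2O2 at 8 h without replicate 2 against untreated cells (0.05, adjusted p = 0.00936) and against 24 h (adjusted p = 0.0075), the latter also with library medians aligned (adjusted p = 0.0203), and, after quantile normalization, H2O2 against NCS at 4 h (-0.04, adjusted p = 0.0344) and H2O2 from 4 to 8 h (0.04, adjusted p = 0.0345).

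Of the JNK- and p38-selective enzymes, DUSP8 had the largest difference of all 10 members in H2O2 at 4 h. Its values were 5.92, 5.97 and 6.14 in untreated cells and 7.16, 7.19 and 7.17 in H2O2 at 4 h, above all other libraries. They were 6.14, 6.27 and 6.06 at 8 h and 5.88, 6.0 and 5.87 at 24 h, overlapping the untreated ones. The difference of 1.16 ± 0.07 at 4 h (adjusted p = 2.94e-10) was lost by 8 h, when DUSP8 fell by 1.02 on the log2 scale (SE 0.07, adjusted p = 2.59e-09; -1.07 without replicate 2 at 8 h). At 8 h the difference from untreated cells did not pass (0.15 ± 0.07, adjusted p = 0.122; 0.09 without replicate 2), although it did without untreated replicate 3 (0.21, adjusted p = 0.0313). The step from 8 to 24 h was -0.24 ± 0.07 (adjusted p = 0.0101) and lost its call without replicate 2 at 8 h (-0.18, adjusted p = 0.0588). The response to NCS was flat, and it was lower than that to H2O2 at 4 h but not at 8 or 24 h. The libraries of NCS had 6.52, 6.28 and 6.26 after 4 h, 6.38, 6.42 and 6.31 after 8 h, and 6.28, 6.35 and 6.30 after 24 h. All NCS libraries were above the untreated ones, by 0.34 ± 0.07, 0.36 ± 0.07 and 0.30 ± 0.07 at 4, 8 and 24 h (adjusted p = 0.00192, 0.000753 and 0.00212). The first of these did not pass in a fit of only the groups compared (0.34, adjusted p = 0.0556). The steps between these times did not pass (0.02 ± 0.07, adjusted p = 0.984; -0.06 ± 0.07, adjusted p = 0.615).

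DUSP16, a cytoplasmic and nuclear JNK phosphatase, rose in H2O2 at 4 h and was back at 8 h. Untreated cells had 8.12, 7.97 and 8.05, and in H2O2 the libraries had 8.88, 8.85 and 8.98 after 4 h, 7.90, 8.21 and 7.97 after 8 h, and 8.07, 8.17 and 8.18 after 24 h. Only the libraries at 4 h stood clear of the untreated ones, by 0.86 ± 0.06 (adjusted p = 5.03e-09). After 8 h DUSP16 differed from untreated cells by -0.02 ± 0.06 (adjusted p = 0.926; -0.11, adjusted p = 0.134, without replicate 2). From 4 to 8 h DUSP16 fell by 0.88 on the log2 scale (SE 0.06, adjusted p = 5.27e-09; -0.97 without replicate 2 at 8 h). The step from 8 to 24 h, 0.11 ± 0.06 (adjusted p = 0.186), passed only without that replicate (0.20, adjusted p = 0.00551). In NCS the differences were 0.09 ± 0.06 after 4 h (adjusted p = 0.416), 0.18 ± 0.06 after 8 h (adjusted p = 0.0487) and 0.17 ± 0.06 after 24 h (adjusted p = 0.048). Each of the last 2 lost its call without untreated replicate 2 or 3 and without any 1 of its own 3 NCS libraries (8 h, 0.14 to 0.20, adjusted p from 0.0708 to 0.198; 24 h, 0.13 to 0.19, adjusted p from 0.0555 to 0.199). Both were also lost without the mean-variance trend (adjusted p = 0.0619 and 0.0604).

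DUSP10, which acts on p38 and JNK, was higher with H2O2 than with NCS at 4 and 8 h. Its values were 9.78, 9.76 and 9.74 in untreated cells, and 10.30, 10.23 and 10.39 after 4 h, 10.10, 9.97 and 10.06 after 8 h, and 9.95, 9.84 and 9.83 after 24 h of H2O2. All libraries of H2O2 were above the untreated ones. The difference was 0.54 ± 0.04 after 4 h (adjusted p = 1.03e-08), 0.28 ± 0.04 after 8 h (adjusted p = 4.22e-05; 0.31 without replicate 2) and 0.11 ± 0.04 after 24 h, which missed the threshold (adjusted p = 0.0501) and passed it without replicate 2 or 3 of that group (0.13, adjusted p = 0.0499 and 0.046). It also passed after quantile normalization (0.16, adjusted p = 0.0071) and among genes with a mean of at least 5 (adjusted p = 0.0246). In NCS the values were 9.75, 9.67 and 9.70 after 4 h, 9.75, 9.72 and 9.62 after 8 h, and 9.81, 9.85 and 9.86 after 24 h. The differences of -0.06 ± 0.04 after 4 h, -0.06 ± 0.04 after 8 h and 0.08 ± 0.04 after 24 h did not pass (adjusted p = 0.476, 0.371 and 0.163). The last of these passed after quantile normalization (0.15, adjusted p = 0.0114) and in a fit of only the groups compared (0.08, adjusted p = 0.0388). The step from 8 to 24 h was 0.15 ± 0.04 (adjusted p = 0.0152) and lost its call without replicate 3 at 8 h (0.11, adjusted p = 0.0967) or replicate 3 at 24 h (0.14, adjusted p = 0.0533).

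Steps between times were also counted within each treatment. In H2O2, 3 members rose (DUSP4, DUSP5 and DUSP6) and 6 fell from 4 to 8 h, where 18% of all genes rose and 27.7% fell. The fall of DUSP2 between these times, -0.18 ± 0.05 (adjusted p = 0.00802), did not pass after quantile normalization (-0.05, adjusted p = 0.499). From 8 to 24 h, 2 rose and 6 fell (19.4% and 23.2%), among them DUSP1 with a step of -0.19 (-0.11 after quantile normalization). Without replicate 2 at 8 h the counts were again 3 and 6 from 4 to 8 h, and 3 and 6 from 8 to 24 h, with DUSP16 added upward (0.20, adjusted p = 0.00551), DUSP9 added downward (-0.05, adjusted p = 0.0075) and DUSP8 lost (-0.18, adjusted p = 0.0588). In NCS, DUSP6 was the only member that passed from 4 to 8 h (13.7% of all genes in either direction), and from 8 to 24 h, 3 rose and 3 fell (14.9% and 15%). Among genes with a mean of at least 5, 57.1% passed in H2O2 from 4 to 8 h beside 8 of 8 members, and 63.2% from 8 to 24 h beside 7. For NCS these shares were 22.4% beside 1 member and 48% beside 6.

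The difference between H2O2 and NCS at matched times does not use the untreated values. The untreated libraries still enter the SE and adjusted p through the fit of all 7 groups. At 4 h, DUSP1, DUSP2, DUSP7, DUSP8, DUSP10 and DUSP16 were higher in H2O2, DUSP4 and DUSP6 were lower, and DUSP5 and DUSP9 did not pass (26.3% of all genes higher, 18% lower). The largest differences were in the JNK- and p38-selective enzymes, with 0.82 ± 0.07 for DUSP8 (adjusted p = 3.01e-08), 0.76 ± 0.06 for DUSP16 (adjusted p = 2.42e-08) and 0.60 ± 0.04 for DUSP10 (adjusted p = 2.71e-09). No library of H2O2 overlapped a library of NCS for these 3 genes (50.1% of all genes did not overlap). DUSP1 differed by 0.39 ± 0.04 (adjusted p = 9.39e-08), DUSP2 and DUSP7 by 0.25 each (SE 0.05 and 0.03, adjusted p = 0.000476 and 1.47e-06), DUSP6 by -0.44 ± 0.04 (adjusted p = 2.09e-07) and DUSP4 by -0.14 ± 0.04 (adjusted p = 0.00718). After quantile normalization the differences of DUSP2 (0.07, adjusted p = 0.309) and DUSP4 (-0.09, adjusted p = 0.0752) did not pass.

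At 8 h, 6 members were higher in H2O2 than in NCS and 2 were lower (18.7% and 15.4% of all genes). DUSP5 had the largest difference (0.55 ± 0.05, adjusted p = 8.75e-08; 0.64 without H2O2 replicate 2), followed by DUSP10 (0.34 ± 0.04, adjusted p = 6.32e-06; 0.38), DUSP6 (0.23 ± 0.04, adjusted p = 0.000518; 0.24) and DUSP4 (0.16 ± 0.04, adjusted p = 0.0031; 0.19). The other 4 calls were each lost without 1 of several libraries. Leaving out H2O2 replicate 2 took DUSP8 to -0.27 (adjusted p = 0.00849), DUSP16 to -0.29 (adjusted p = 0.000378) and DUSP7 to 0.12 (adjusted p = 0.00308), whereas DUSP2 lost its call (0.13, adjusted p = 0.0805). DUSP8 (-0.22 ± 0.07, adjusted p = 0.0241) lost its call without H2O2 replicate 1 or 3 or NCS replicate 1 or 2 (-0.21 to -0.17, adjusted p from 0.0615 to 0.12). DUSP16 (-0.20 ± 0.06, adjusted p = 0.0219) lost it without H2O2 replicate 1 or 3 or NCS replicate 1 (-0.18 to -0.14, adjusted p from 0.0816 to 0.138). DUSP7 (0.09 ± 0.03, adjusted p = 0.0262) lost it without H2O2 replicate 1 or 3 or NCS replicate 1 or 3 (0.07 to 0.08, adjusted p from 0.0813 to 0.111). DUSP2 (0.16 ± 0.05, adjusted p = 0.0191) lost it without H2O2 replicate 2 or NCS replicate 3 (0.10 to 0.13, adjusted p from 0.0805 to 0.13). After quantile normalization DUSP2 (0.11, adjusted p = 0.1) and DUSP7 (0.06, adjusted p = 0.111) did not pass. A fit of only these 6 libraries called DUSP5, DUSP6 and DUSP10, and DUSP4 did not pass in it (0.16, adjusted p = 0.0577).

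At 24 h, DUSP4 (0.29 ± 0.04, adjusted p = 2.48e-05), DUSP6 (0.28 ± 0.04, adjusted p = 0.000133), DUSP5 (0.24 ± 0.05, adjusted p = 0.00118) and DUSP7 (0.09 ± 0.03, adjusted p = 0.0272) were higher in H2O2, and DUSP8 was lower (-0.39 ± 0.07, adjusted p = 0.00045). Of all genes, 11% were higher and 10.9% lower. The call of DUSP7 was lost without any 1 of the 3 H2O2 libraries or NCS replicate 3 (0.07 to 0.10, adjusted p from 0.0523 to 0.139), with library medians aligned (0.07, adjusted p = 0.154) and after quantile normalization (0.08, adjusted p = 0.0696). The differences of DUSP1 (0.01 ± 0.04, adjusted p = 0.936), DUSP2 (0.01 ± 0.05, adjusted p = 0.936), DUSP10 (0.03 ± 0.04, adjusted p = 0.768) and DUSP16 (-0.07 ± 0.06, adjusted p = 0.516) did not pass.

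**Figure D4:**
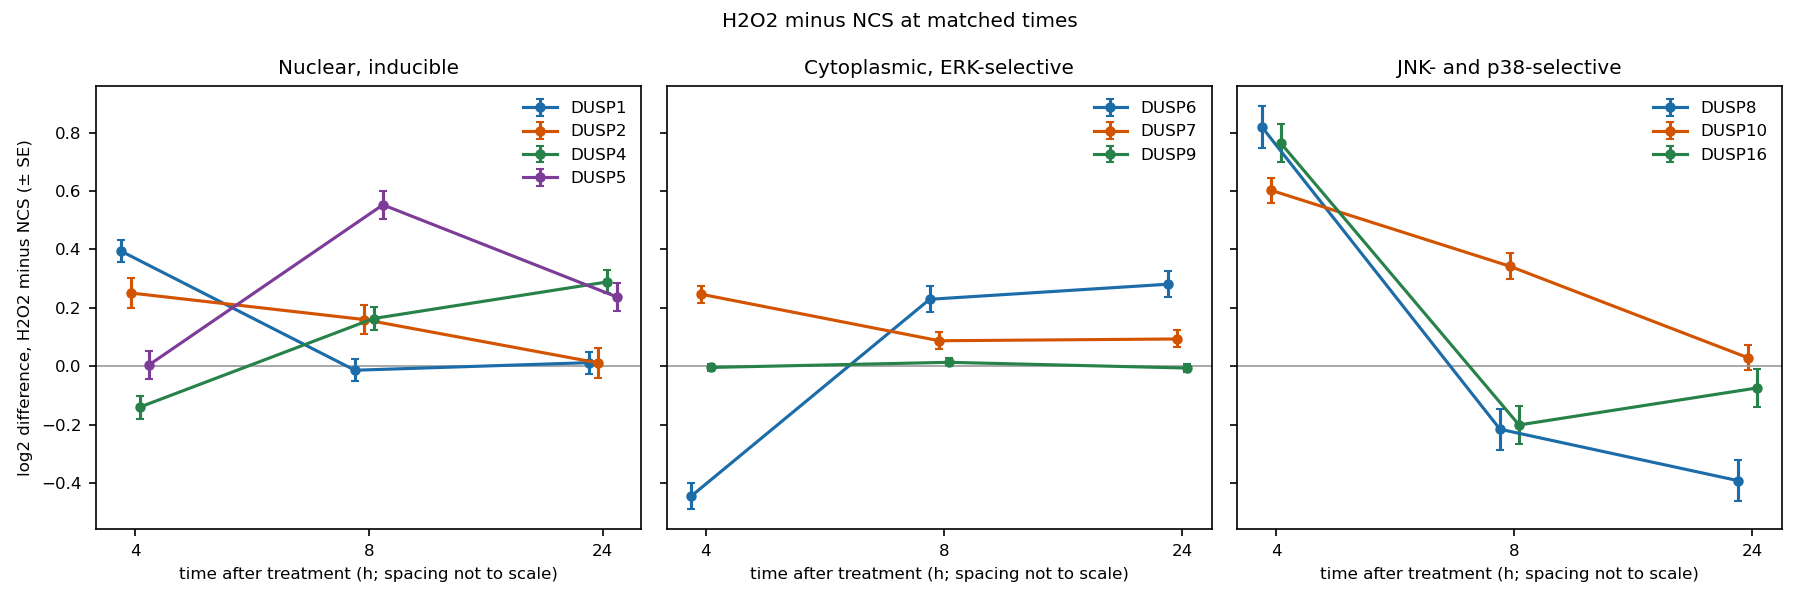
Difference between H2O2 and NCS at matched times (y axis, log2 difference of group means of 3 libraries, bars ± SE from the fit of all groups; x axis, hours after treatment; panels, the classes of MAPK phosphatases). DUSP8, DUSP10 and DUSP16 start between 0.60 and 0.82 at 4 h and end between -0.39 and 0.03 at 24 h, whereas DUSP6 moves from -0.44 to 0.28.

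The change of this difference from 4 to 24 h was tested in the same fit. It passed for 9 of the 10 members, downward for DUSP1, DUSP2, DUSP7, DUSP8, DUSP10 and DUSP16 and upward for DUSP4, DUSP5 and DUSP6 (39.4% of all genes passed, 22.7% downward and 16.6% upward). Among genes with a mean of at least 5, 49.1% passed, beside 8 of 8 members. After quantile normalization the change of DUSP2 (-0.24 ± 0.07, adjusted p = 0.012) was -0.07 and did not pass (adjusted p = 0.516), which left 8 members. The sign of the difference turned for DUSP6 (-0.44 at 4 h, 0.28 at 24 h; change 0.73 ± 0.06, adjusted p = 7.02e-08), for DUSP4 (-0.14 and 0.29; 0.43 ± 0.06, adjusted p = 7.63e-06) and for DUSP8 (0.82 and -0.39; -1.21 ± 0.10, adjusted p = 3.7e-08), with both ends past the threshold in each case. For DUSP16 (-0.84 ± 0.09, adjusted p = 1.09e-06), DUSP10 (-0.57 ± 0.06, adjusted p = 8.55e-07) and DUSP1 (-0.38 ± 0.05, adjusted p = 1.48e-05) the difference at 24 h did not pass.

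Transcripts on either side of the phosphatases were counted from lists. Of 12 AP-1 and stress-kinase-responsive transcripts, 10 rose and ZFP36 fell in H2O2 at 4 h, with a median difference of 0.79 (26.2% of all genes rose and 19.7% fell). JUN did not pass, with a mean of 11.30 both in untreated cells and in H2O2 at 4 h. FOSB, an AP-1 subunit, rose by 4.88 ± 0.11 (adjusted p = 5.39e-16), ATF3, a CRE-binding stress factor, by 3.45 ± 0.05 (adjusted p = 2.53e-18), JUNB by 1.51 ± 0.08 (adjusted p = 4.69e-11) and GADD45B, a stress-inducible regulator of p38 and JNK signaling, by 1.11. In NCS at 4 h, 5 of the 12 rose and 3 fell (7.47% and 9.72% of all genes). ATF3 had the largest difference in NCS, 1.58 ± 0.05 (adjusted p = 6.89e-13). JUNB rose by 0.58 ± 0.08 (adjusted p = 3.78e-05) and GADD45B by 0.42 ± 0.04 (adjusted p = 8.48e-07), and FOS, the partner of JUN in AP-1, was at -0.92 ± 0.08 (adjusted p = 1.5e-07). Between the treatments at 4 h, 9 were higher in H2O2 and none was lower (26.3% and 18% of all genes), with a median of 0.69, beside a median of 0.76 for DUSP8, DUSP10 and DUSP16.

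The 16 ERK-responsive transcripts moved in both directions while DUSP6 fell. In H2O2 at 4 h, 7 rose and 4 fell (26.2% and 19.7% of all genes). IER3, an early response gene, rose by 1.07 ± 0.05 (adjusted p = 1.09e-11) and SPRY2, a feedback inhibitor of receptor tyrosine kinase signaling, by 0.66 ± 0.04 (adjusted p = 8.46e-11), followed by the receptor EPHA2 (0.61 ± 0.04, adjusted p = 2.86e-10) and SPRY4 (0.50 ± 0.02, adjusted p = 2.99e-12). EGR1 (-0.43 ± 0.08, adjusted p = 0.000195) and SPRED1 (-0.42 ± 0.06, adjusted p = 2.34e-05), named after their values were seen, had the largest falls of the list. In NCS at 4 h, 4 rose and 6 fell (7.47% and 9.72% of all genes). The falls included EGR1 (-1.35 ± 0.08, adjusted p = 8.94e-10) and the ETS factor ETV5 (-0.47 ± 0.05, adjusted p = 9.09e-07), beside DUSP6 at -0.41. IER3 rose in NCS as well, by 0.39 ± 0.05 (adjusted p = 1.68e-05). Between the treatments, 10 were higher in H2O2 and 3 lower at 4 h (26.3% and 18% of all genes). The counts were 9 and 1 at 8 h (18.7% and 15.4%), and 9 and none at 24 h (11% and 10.9%). At 24 h DUSP4, DUSP5 and DUSP6 were higher in H2O2 together with ETV4 (0.46 ± 0.03, adjusted p = 6.73e-09), PHLDA1 (0.43 ± 0.05, adjusted p = 3.77e-06) and ETV1 (0.35 ± 0.08, adjusted p = 0.00475).

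Other phosphatases were counted in the same way. Of 13 other dual-specificity phosphatases tested, 5 rose and 2 fell in H2O2 at 4 h (median difference 0.012; 26.2% and 19.7% of all genes), with DUSP14 at 0.39 ± 0.03 (adjusted p = 9.11e-09), DUSP3, which also acts on ERK and JNK, at 0.32 ± 0.02 (adjusted p = 4.15e-10) and DUSP18 at -0.29 ± 0.05 (adjusted p = 0.000122). Of 8 other phosphatases that act on MAPKs, 3 rose and 1 fell. PPM1D, a p53 target that removes phosphate from p38, rose at 4 h by 0.92 ± 0.06 with H2O2 and 0.79 ± 0.06 with NCS (adjusted p = 1.81e-09 and 6.37e-08). Of the 10 members, DUSP8 alone had a larger difference in H2O2 at 4 h. A difference between the treatments did not pass for PPM1D (0.13 ± 0.06, adjusted p = 0.127). While H2O2 gave the higher values of DUSP8, DUSP10 and DUSP16 at 4 h, it gave lower values than NCS for all 10 p53-responsive transcripts (median -0.46). Of all genes, 18% were lower in this comparison. The 10 included FDXR (-0.98 ± 0.07, adjusted p = 2.99e-09), a mitochondrial reductase, and ZMAT3 (-0.82 ± 0.06, adjusted p = 1.5e-09), an RNA-binding protein.

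**Figure D5:**
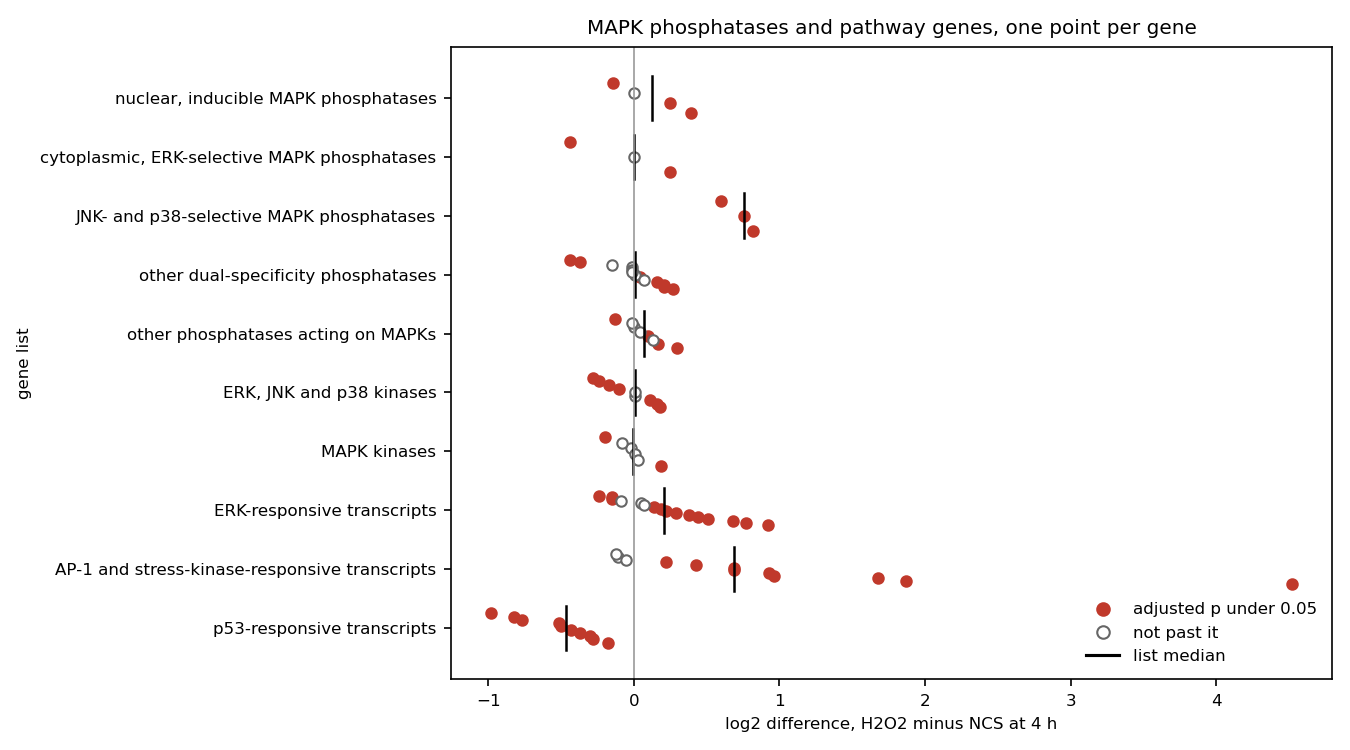
Difference between H2O2 and NCS at 4 h for the MAPK phosphatases and 7 pathway lists (x axis, log2 difference of group means of 3 libraries; rows, lists; points, genes; vertical bars, list medians). The 3 JNK- and p38-selective phosphatases lie at 0.60 to 0.82, 9 of 12 AP-1 and stress-kinase-responsive genes are higher in H2O2, and all 10 p53-responsive genes are lower.

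The genes whose pattern was most like that of DUSP4 and DUSP8 were taken from 11680 others with a mean rLog value of at least 5, by the Euclidean distance between the 7 group means after centering. For DUSP4 they were VWCE (distance 0.28), IGDCC4 (0.31) and ITGA2, a collagen-binding integrin subunit (0.32). Group means of ITGA2 were 10.65 in untreated cells, 10.83, 11.09 and 11.50 at 4, 8 and 24 h after H2O2, and 10.81, 11.01 and 11.21 after NCS. For DUSP8 they were the zinc finger gene ZNF596 (0.27), MAFK, a small MAF partner of the oxidative stress factor NRF2 (0.36), and KCTD11 (0.37). Group means of ZNF596 were 5.91 in untreated cells, 7.15, 6.26 and 5.94 after H2O2, and 6.19, 6.16 and 6.21 after NCS. DUSP8, DUSP1, DUSP6 and DUSP16 are overlapped by a gene on the opposite strand in GENCODE v29, and the strand setting of the counting is not given in the sources used here, so reads of the partner genes may be included. DUSP8 also has processed pseudogenes, and how reads shared with them were counted is not given there either.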

How the data were processed

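The authors sequenced TruSeq Stranded mRNA libraries, aligned reads with HISAT2 at default settings, counted them per gene with htseq-count in Galaxy and used DESeq2. The submitters' processing notes name hg19. Tool versions, the annotation and the strand setting are not given in the sources used here. The deposited log2 values are the authors' rLog transformation of the counts, without counts or depths, so no counting interval or floor could be calculated; errors of differences are standard errors of the fit.

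Of 23368 genes, 19694 with a value other than 0 in at least 1 library were tested with limma 3.58.1 (R 4.3.3) in 1 fit of all 7 groups with a mean-variance trend. In repeated simulated data the fit recovered nearly all planted changes, and the share of false calls was on average slightly above the nominal rate. In 1 run, 199 of 200 planted changes were recovered and 8.72% of the calls were false. The simulated spread of a gene was the same in all groups and few genes were changed. The wider spread of H2O2 at 8 h and the smaller differences called here were therefore not covered. p-values were adjusted by the Benjamini-Hochberg method over all 19694 genes in each comparison and an adjusted p under 0.05 was called. The members, gene lists and motifs were chosen with earlier results of these data known. Most genes named besides the members are among the 4 with the largest differences past the threshold in their list in a comparison described. ZFP36 and SPRED1 were named for their falls in H2O2 at 4 h and were not among these 4. For members over a log2 difference of 1 from untreated cells, the 3 genes of closest pattern were named too. PPM1D and JUN were also named in comparisons that they did not pass. Motifs and promoter sequences came from RefSeq windows (GRCh38.p14); the files hold no coordinates. Python 3.11.15, numpy 2.4.6, pandas 2.3.3 and matplotlib 3.10.9 were used.

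Alternatives were quantile normalization, aligned library medians, no mean-variance trend, a minimum mean of 5, only the groups compared, log2 differences over 0.58 or 1, the replicate numbers as a block, and leaving out single libraries. The share of calls among genes with a mean of at least 5 was added after seeing the data.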

Additional observations from a re-analysis of the deposited data

Results flagged for a closer look

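For 9 of the 10 MAPK phosphatases, the difference between H2O2 and NCS was not the same at 4 and at 24 h, by limma's test of the change between these times. The log2 change was -0.38 for DUSP1, -0.24 for DUSP2, 0.43 for DUSP4, 0.23 for DUSP5, 0.73 for DUSP6, -0.15 for DUSP7, -1.21 for DUSP8, -0.57 for DUSP10 and -0.84 for DUSP16. The smallest adjusted p was 3.7e-08 for DUSP8 and the largest was 0.012 for DUSP2, beside 39.4% of all genes that passed. Among genes with a mean of at least 5, 49.1% passed. After quantile normalization the change of DUSP2 was -0.07 and did not pass (adjusted p = 0.516).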

How the results depend on the processing

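No member's called difference changed sign under any alternative run. Depth is unknown, and rLog shrinkage limits what can be seen for DUSP2, DUSP8 and DUSP9. With the replicate numbers as a block, 137 of 140 member results kept their side of the threshold; DUSP10 in H2O2 at 24 h passed (adjusted p = 0.0358) and DUSP16 in NCS did not at 8 h (0.0662) or 24 h (0.065). Whether equal replicate numbers mark paired libraries was not tested. Deviations from the group means correlated at a mean of 0.0274 for equal numbers and -0.0137 for others. These means are not separate results, because the deviations of a group sum to 0. Single pairs of equal number had correlations from -0.113 to 0.213, and 0 of 9 comparisons had every pair over 0.1. Of the 21 libraries, 12 correlated best with their own number. Of 140 member results, quantile normalization lost 8 calls and gained 4, a fit of only the groups compared lost 9 and gained 2, no trend lost 2 and gained 1, and aligned medians lost 1 and gained 1. A minimum mean of 5 gained 1 of 112, and single libraries left out lost 37 and gained 7 of 900. Only the groups compared gave 3 members in place of 8 for H2O2 against NCS at 8 h and 0 in place of 1 for NCS from 4 to 8 h; the cause was not tested. Of 90 called member results, 79 kept the call whichever library of the groups compared was left out. Libraries of the other groups also enter the fit, and they were not left out for that result. Leaving out 1 library of the groups compared gave 5 to 7 members for H2O2 against NCS at 8 h. It gave 0 to 1 for NCS from 4 to 8 h and 4 to 6 for NCS from 8 to 24 h. Requiring a log2 difference over 0.58 or over 1 as well left, of 10 members, 4 and 1 in H2O2 at 4 h, 2 and 0 at 8 h, 1 and 1 at 24 h, 0 and 0 in NCS at 4 and 8 h, 1 and 0 at 24 h, 3 and 0 for H2O2 against NCS at 4 h, 0 and 0 at 8 and 24 h, 3 and 1 for H2O2 from 4 to 8 h, 0 and 0 for the other steps, and 3 and 1 for the change from 4 to 24 h. Both scalings moved the median of all genes by less than 0.1.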

Other observations

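The kinases that the MAPK phosphatases act on went in both directions. Of 9 ERK, JNK and p38 genes, 2 rose and 3 fell in H2O2 at 4 h, where 26.2% of all genes rose and 19.7% fell, with a median difference of 0.008. MAPK14, the main p38 kinase, fell by 0.33 on the log2 scale (SE 0.04, adjusted p = 8.32e-07) in H2O2 at 4 h, and MAPK12, another p38 kinase, fell by 0.17 (SE 0.04, adjusted p = 0.00221). MAPK8, which encodes JNK1, rose by 0.19 ± 0.06 (adjusted p = 0.00764) and MAPK13, a further p38 kinase, by 0.14 ± 0.05 (adjusted p = 0.0209). MAPK11 was higher at 24 h in both H2O2 (0.30 ± 0.04, adjusted p = 1.87e-05) and NCS (0.36 ± 0.04, adjusted p = 2.31e-06). Among 6 MAPK kinases, 1 rose and 2 fell in H2O2 at 4 h. MAP2K3, which activates p38, was higher at 4 h (0.28 ± 0.04, adjusted p = 1.01e-05) and lower at 24 h (-0.27 ± 0.04, adjusted p = 1.1e-05) in H2O2, and its difference from NCS went from 0.19 ± 0.04 (adjusted p = 0.000586) at 4 h to -0.20 ± 0.04 (adjusted p = 0.00103) at 24 h.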
